A study of Zea mays with 6 samples.

Results

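Of 44146 nuclear gene models counted in maize (Zea mays) seedling leaves, 71 had strongly higher counts in every library of the inbred line B73 than in any library of the inbred line W9706. A gene was a member when its lowest B73 level was at least 4 times its highest W9706 level and its mean in B73 was at least 10 CPM. CPM is the gene's count per 1000000 counts of the library total, and a count of 0 would have been taken as 0.1 CPM. The same values chose the members and describe them here, so the levels below are a description and no test of the difference between the lines is drawn from them. The members made up 0.591% of the 12009 nuclear genes whose B73 mean reached 10 CPM. In 18.5% of those 12009 genes all W9706 libraries lay below all B73 libraries. The mirrored rule asks for at least 4 times higher levels in every W9706 library and a W9706 mean of 10 CPM or more. It also gave 71 genes, 0.549% of the 12921 nuclear genes at that level in W9706. Both counts used library totals. CPM scaled by edgeR's trimmed mean of M-values (TMM) gave 98 members, and the mirrored rule was not counted on that scale.

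The study set W9706 against B73, which the labels call wild type, and all 6 libraries came from the third leaf of drought-treated plants at day 7, 3 libraries per line. Plants of both lines grew in soil in beakers in a growth chamber. No watered library was analysed here, so the members differ by line under drought and nothing can be said of their response to it. The labels do not tell whether replicates were separate plants, and each line is a single inbred genotype. Spread between libraries may be technical or between plants, and which was not tested.

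Maize inbred lines are known to differ widely in sequence, in the regulation of single genes and in gene content, so that a gene model of one line can be altered or lacking in another. B73 is the line from which the maize reference genome was made, and identifiers with the prefix Zm00001d belong to gene models of that line. Reads of another line count toward such a model only where they resemble it closely enough to align. The deposited files pair no member with a gene name, and the RefSeq gene table matched 0 of the 44146 identifiers, so no role can be given to any member and the labelled tissue could not be checked against leaf markers.

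Libraries held 21084151 to 32088105 counts assigned to genes. Unmapped reads were 13.0% to 13.5% of all reads in W9706 and 12.7% to 13.8% in B73, which overlapped. Multimapping reads are listed as 0 in every library, and whether the unmapped reads include them cannot be told. Reads outside annotated genes were 4.18% to 4.33% in W9706 and 3.68% to 3.79% in B73, which did not overlap. W9706 replicate 1 and B73 replicate 2 each correlated more closely with the other line than the other libraries of their own line did (mean r over nuclear genes of 0.970 and 0.971 on log2(CPM + 1)). Without both of them 133 genes met the rule, 70 of the 71 members among them. The part of reads that fail to align to a gene model in the low W9706 counts of the members was not tested.

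Together the members took 0.0600 ± 0.0039% of the counts of W9706 libraries and 0.689 ± 0.021% of the counts of B73 libraries (SD, n = 3 each). By library the share was 0.0645%, 0.0575% and 0.0579% in W9706 replicates 1 to 3, and 0.665%, 0.698% and 0.703% in B73 replicates 1 to 3. In leaf tissue fewer cells of a type and less RNA per cell cannot be told apart. The mean level of a member ran from 0.276 to 86.7 CPM in W9706, with a median of 3.18 CPM, and from 10.0 to 816 CPM in B73, with a median of 38.5 CPM. In W9706 no member reached a mean of 100 CPM, while in B73 20 did and 10 reached 200 CPM. The 10 members with the highest B73 mean held 50.2% of the summed mean level of the 71 in W9706 and 55.1% in B73. Across the 71 members the mean levels of the lines were related on the log2 scale (Pearson's r = 0.87, Spearman's rho = 0.85). That relation is across genes, which share libraries and the rule that bounds the W9706 level from above.

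**Figure D1:**
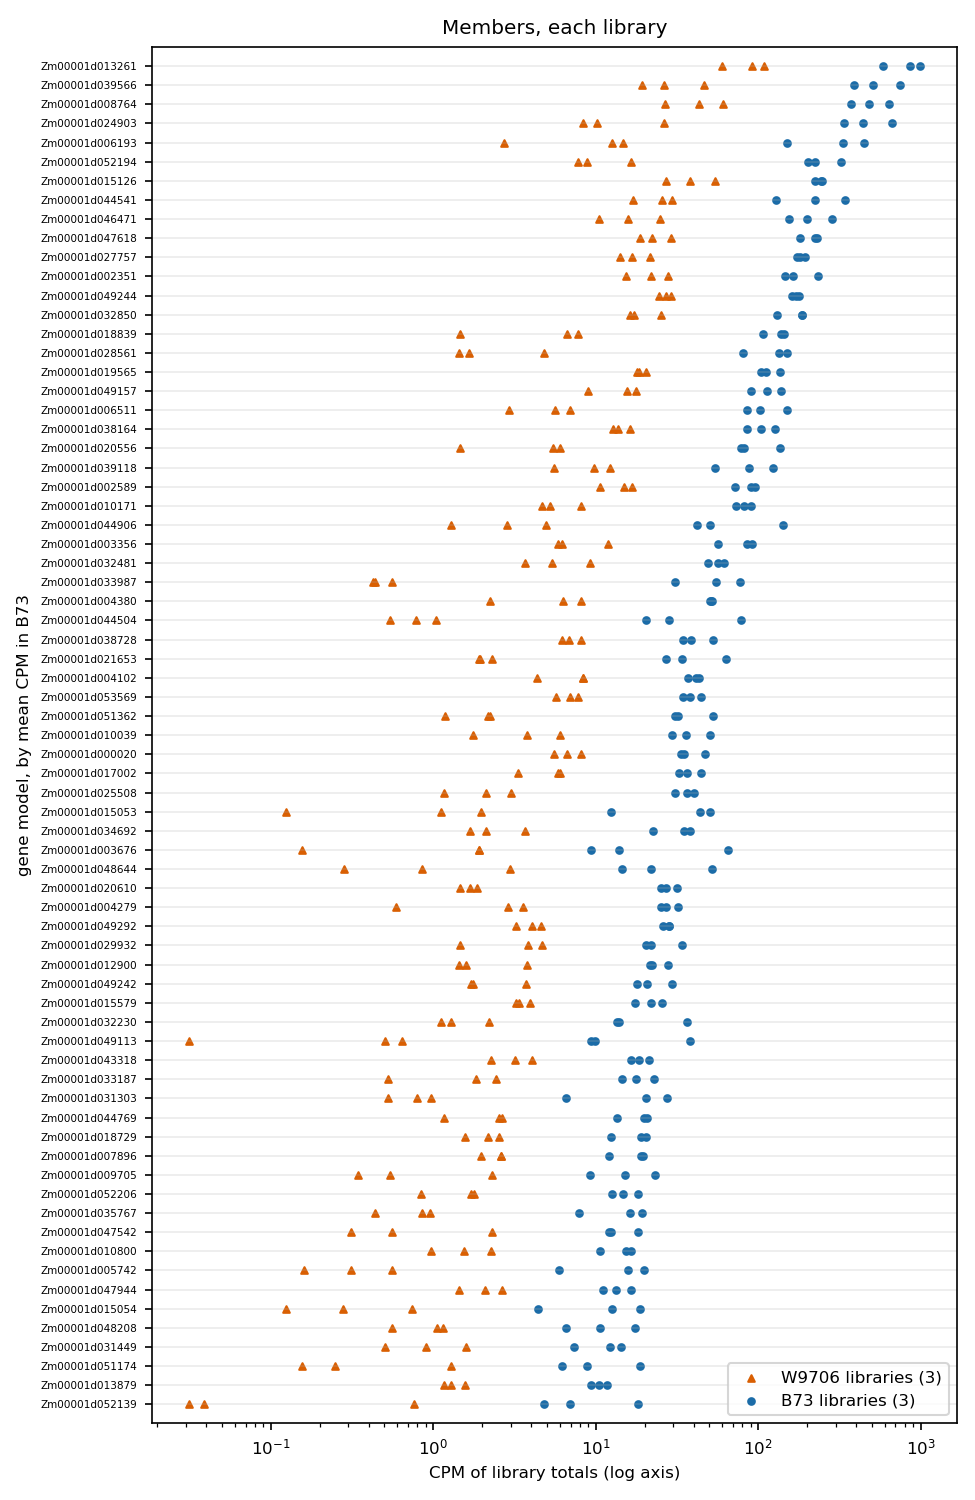
CPM of each of the 71 members in each library on a log axis, with the gene models ordered by their mean in B73. Triangles are the 3 W9706 libraries and circles the 3 B73 libraries, and by the rule the groups do not overlap for any member.

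The most abundant member, Zm00001d013261, had 109, 59.8 and 91.1 CPM in W9706 replicates 1 to 3 and 861, 590 and 997 CPM in B73 replicates 1 to 3. It ranked 2208th among nuclear genes by mean level in W9706 and 109th in B73. It was also the most abundant member in W9706. Zm00001d039566 had 19.2, 26.4 and 46.3 CPM in W9706 and 387, 748 and 507 CPM in B73. Zm00001d008764 had 60.6, 26.8 and 43.5 CPM in W9706 and 478, 375 and 639 CPM in B73. The first and the last of these genes were highest in B73 replicate 3 and lowest in replicate 2, and the other was highest in replicate 2.

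Zm00001d024903 had 8.34, 10.2 and 26.4 CPM in W9706 and 443, 670 and 339 CPM in B73. Its W9706 replicate 3 stood above the other W9706 libraries, and it was the B73 replicate 2 that was highest in B73. Zm00001d006193 had 12.6, 14.8 and 2.74 CPM in W9706 and 446, 150 and 331 CPM in B73. For this gene W9706 replicate 3 and B73 replicate 2 were the lowest libraries of their lines. Zm00001d052194 had 8.82, 7.77 and 16.5 CPM in W9706 and 202, 325 and 223 CPM in B73. Zm00001d015126 had 38.0, 54.5 and 26.9 CPM in W9706 and 243, 246 and 223 CPM in B73, so its B73 libraries were close together and its W9706 libraries were not.

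The genes that completed the 10 most abundant were lower still. Zm00001d044541 had 16.9, 25.5 and 29.6 CPM in W9706 and 129, 342 and 222 CPM in B73. Zm00001d046471 had 10.5, 15.7 and 24.9 CPM in W9706 and 155, 285 and 199 CPM in B73. Zm00001d047618 had 28.9, 22.3 and 18.7 CPM in W9706 and 182, 225 and 230 CPM in B73. In the first and second of these B73 replicate 1 was the lowest B73 library and W9706 replicate 1 the lowest W9706 library.

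**Figure D2:**
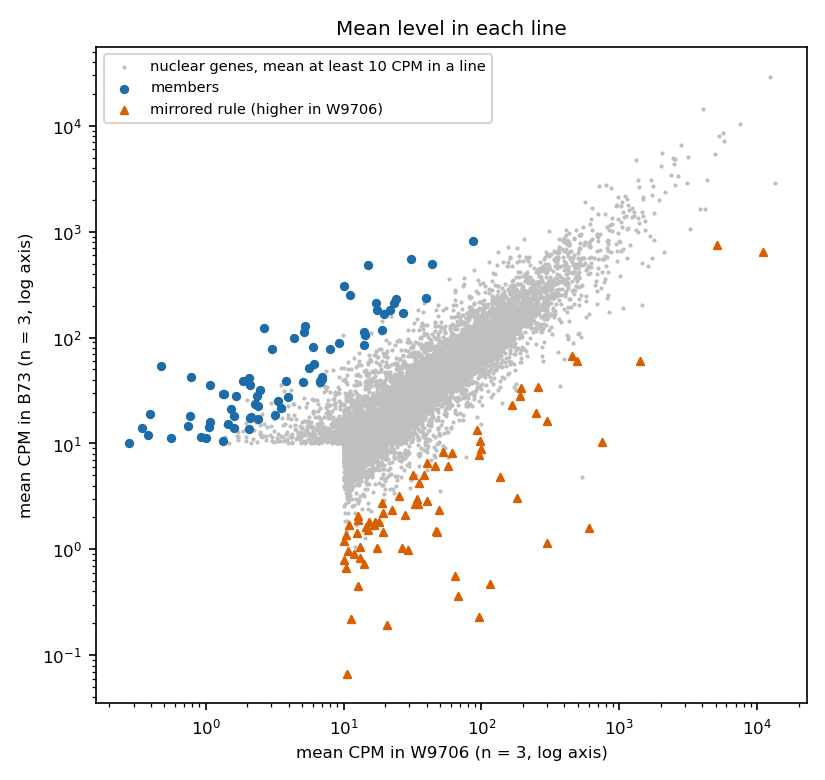
Mean CPM in W9706 against mean CPM in B73 (n = 3 each, log axes) for nuclear genes whose mean reached 10 CPM in either line. Circles are the 71 members and triangles the 71 genes of the mirrored rule. By CPM of library totals, the widest gap between the lines was 54.9 for a member and 197 under the mirrored rule.

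The gap between the lines, given here as the lowest B73 level over the highest W9706 level, had a median of 5.71 and reached 54.9. It was under 5 in 23 members, at least 8 in 20 and at least 16 in 3. Under the mirrored rule the gap is the lowest W9706 level over the highest B73 level. There 25 genes had a gap of at least 8 and 13 of at least 16, up to 197. Both sets of gaps used library totals, and the mirrored gaps were not taken on TMM-scaled CPM. The largest gap among the members was that of Zm00001d033987, with 0.559, 0.427 and 0.436 CPM in W9706 and 54.9, 77.0 and 30.7 CPM in B73. Its W9706 libraries held 14, 11 and 14 counts, so the gene was detected in each of them, and its B73 libraries held 1461, 1860 and 647 counts.

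Zm00001d044504 came next with a gap of 19.6, at 1.04, 0.544 and 0.779 CPM in W9706 and 20.3, 28.3 and 78.1 CPM in B73. B73 replicate 3 was far above the other B73 libraries for this gene. Zm00001d028561 had a gap of 16.7, at 1.44, 1.67 and 4.80 CPM in W9706 and 80.2, 152 and 135 CPM in B73. Zm00001d049113 had a gap of 14.7, at 0.639, 0.505 and 0.0312 CPM in W9706 and 38.2, 9.89 and 9.39 CPM in B73. In this gene replicate 1 was the highest library of each line, and W9706 replicate 3 held a single count.

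Gaps of 12.2 to 13.8 were found for the remaining 6 of the 10 widest. Zm00001d051362 had 2.24, 2.17 and 1.18 CPM in W9706 and 32.1, 52.7 and 30.9 CPM in B73. Zm00001d018839 had 7.74, 6.64 and 1.46 CPM in W9706 and 107, 137 and 143 CPM in B73. The W9706 replicate 3 of both genes lay below the other W9706 libraries. Zm00001d020610 had 1.68, 1.86 and 1.46 CPM in W9706 and 25.3, 31.9 and 27.0 CPM in B73, with little spread within either line. Zm00001d020556 had 6.07, 5.48 and 1.46 CPM in W9706 and 137, 82.3 and 78.3 CPM in B73. The other members of the 10 were Zm00001d024903 and Zm00001d052194, which are also among the most abundant, with gaps of 12.9 and 12.2.

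At the rule's boundary the values changed little. Zm00001d009705, Zm00001d043318 and Zm00001d000020 stood just inside, with gaps of 4.01, 4.02 and 4.09 and means of 1.07, 3.18 and 6.78 CPM in W9706 and 15.9, 18.7 and 38.4 CPM in B73. Zm00001d037173, Zm00001d012626 and Zm00001d020628 stood just outside, with gaps of 3.86, 3.80 and 3.78 and means of 4.36, 2.53 and 4.16 CPM in W9706 and 23.7, 12.1 and 32.3 CPM in B73.

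Fold changes were taken from an edgeR quasi-likelihood fit of all 22135 genes with enough counts. All 71 members entered it and 71 were called lower in W9706 at a Benjamini-Hochberg adjusted p under 0.05, where 19.0% of all genes tested were called lower and 15.2% higher. The members were chosen on this contrast, so the count is not read further. Their log2 fold changes, W9706 over B73, ran from -7.11 to -2.79 with a median of -3.79, beside a median of 0.01 over all genes tested. The widest was that of Zm00001d033987, at -7.11 ± 0.44 (SE), and the most abundant member, Zm00001d013261, was at -3.52 ± 0.30. The standard error (SE) here is the size of the log2 fold change over the square root of its F statistic. The largest standard error, 1.11, belonged to Zm00001d003676, at -4.82. With library size alone in place of TMM scaling (edgeR's trimmed mean of M-values) the median over all genes moved from 0.01 to 0.29 and that of the members was -3.50. The split of all calls then turned from 3367 higher and 4197 lower in W9706 to 8165 higher and 2622 lower.

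No member was without counts in W9706. The summed counts of the 3 W9706 libraries ran from 21 to 7199 per member with a median of 263, and 57 members had at least 100. Every W9706 library held at least 10 counts in 62 of the 71 members. A count of 0, which did not occur among the members, would have allowed a level of up to 0.0935 to 0.120 CPM in a W9706 library (3 counts, counting error only). Set against the B73 mean, the mean residual level in W9706 was 0.875% to 17.7%, with a median of 8.86%. It was under 5% in 21 members, 5% to 10% in 19 and at least 10% in 31. The rule keeps this value at or under 25%. The median residual was 9.96% for the 20 members with at least 100 CPM in B73, 9.51% for the 31 between 20 and 100 CPM and 8.36% for the 20 under 20 CPM. With TMM-scaled CPM in place of library totals the median over the 71 members was 7.28%.

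The residual level was not the same share of the B73 level in all members of 1 library. In W9706 replicate 1 it ran from 1.03% to 20.7% with a median of 10.2%, in replicate 2 from 0.388% to 23.0% with a median of 7.50%, and in replicate 3 from 0.163% to 21.8% with a median of 6.83%. The lowest values of these libraries belonged to Zm00001d033987, Zm00001d052139 and Zm00001d049113 in this order. W9706 replicate 1 was the highest W9706 library in 34 of the 71 members, and replicate 3 the lowest in 40. In 13 members replicate 3 was at most 0.5 times each of the other W9706 libraries, against 3 members for replicate 2 and 0 for replicate 1. Members under 1 CPM numbered 9, 13 and 18 in W9706 replicates 1 to 3.

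**Figure D3:**
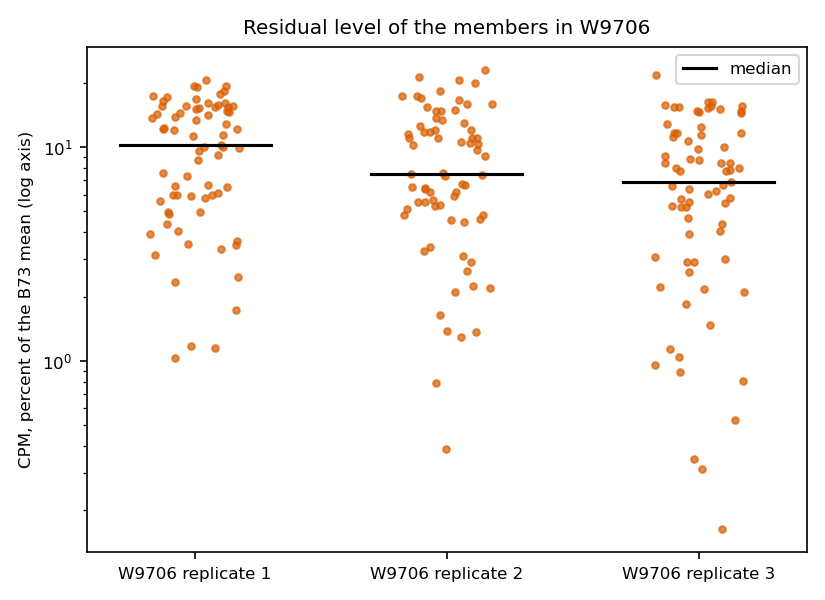
CPM of each member in each W9706 library as a percentage of the gene's mean CPM in B73, on a log axis. Points are the 71 members, scattered sideways for legibility, and bars mark medians of 10.2%, 7.50% and 6.83%; the lowest points lie in replicate 3.

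The members varied more between libraries of a line than most genes did. The median coefficient of variation (SD over mean, n = 3) was 38.4% for members in W9706 and 25.4% in B73. Over all 12009 nuclear genes whose B73 mean reached 10 CPM it was 8.22% in W9706 and 9.64% in B73. Those genes were chosen by their B73 level and were not matched to the members by level in W9706. Counting error alone would give the members a median of 10.7% in W9706, where their counts are low, and 3.28% in B73. The highest library exceeded the lowest by at least 2 times in 40 members in W9706 and in 20 members in B73. The same was found for 3.59% of the 12009 genes in W9706 and 2.91% in B73. The rule did not use the order of libraries within a line, but it did use their lowest and highest levels, and no test was made of this spread. The B73 libraries of 6 members lay within 1.2 times of each other, among them Zm00001d004380 with 51.9, 51.5 and 50.2 CPM, beside 6.31, 8.16 and 2.24 CPM in W9706.

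No B73 library stood apart over the whole set. Replicates 1, 2 and 3 were the highest B73 library in 25, 27 and 19 members, and the lowest in 23, 24 and 24. Single genes did depend on 1 library. The following genes were singled out after their values were seen, because 1 B73 library was at least 2 times each of the others. There were 5 such members for B73 replicate 1, 0 for replicate 2 and 3 for replicate 3. For replicate 1, Zm00001d003676 had 1.92, 1.90 and 0.156 CPM in W9706 and 65.3, 9.32 and 13.9 CPM in B73. Zm00001d048644 had 2.95, 0.854 and 0.280 CPM in W9706 and 51.8, 14.5 and 22.0 CPM in B73. Zm00001d052139, the least abundant member, had 0.758, 0.0388 and 0.0312 CPM in W9706 and 18.2, 6.96 and 4.84 CPM in B73. The others were Zm00001d049113 and Zm00001d051174, and in all 5 of these genes the highest W9706 library by CPM was also replicate 1. W9706 replicates 1 and 2 were close in Zm00001d003676 (48 and 49 counts) and in Zm00001d049113 (16 and 13 counts).

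For B73 replicate 3 the genes were Zm00001d044906, Zm00001d044504 and Zm00001d032230. Zm00001d044906 had 2.83, 1.28 and 4.96 CPM in W9706 and 42.1, 50.3 and 142 CPM in B73. The highest W9706 library of these 3 genes was replicate 3, replicate 1 and replicate 2 in this order. Across the 71 members, deviations from the line's mean log2 CPM correlated at 0.57 between W9706 replicate 1 and B73 replicate 1, at 0.03 between the replicates 2 and at 0.12 between the replicates 3. Between W9706 replicate 1 and B73 replicate 2 the correlation was -0.55, between W9706 replicate 3 and B73 replicate 1 it was -0.44, and between W9706 replicate 3 and B73 replicate 2 it was 0.41. The remaining 3 pairs lay between -0.13 and 0.00. These are correlations across genes of the same libraries and are given as a description.

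Members lay on all 10 chromosomes. The files list microRNA genes among the nuclear genes, and 153 of 154 were matched by name to RefSeq, which gives their chromosome. With 1 stray, zma-MIR171b, left out, the matched genes fell into 10 unbroken stretches, and all 142 neighbouring pairs on 1 chromosome stood in RefSeq's order, so the files run along the chromosomes. A gene between microRNA genes of 1 chromosome was given that chromosome, and 8 of the 71 members and 12.6% of the 12009 genes lay outside and were given none. Chromosomes 1, 4 and 2 held 11, 11 and 10 members. Chromosomes 5, 8 and 9 held 7, 5 and 5, chromosomes 3, 6 and 7 held 4 each, and chromosome 10 held 2.

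Members were 1.05% of the genes with at least 10 CPM in B73 on chromosome 4 and 0.767% on chromosome 2. They were 0.611% on chromosome 1 and 0.327% on chromosome 3, around 0.591% over all. Chromosome 4 thus held 15.5% of the members and 8.69% of the 12009 genes, and chromosome 3 held 5.63% of the members and 10.2% of the genes. Of the 11 members on chromosome 4, 5 lay in a stretch of 158 nuclear genes and 3 in another of 57, both described below. Genes of the mirrored rule numbered 7 on chromosome 4 and 9 on chromosome 3. No test was made of the spread over chromosomes, since neighbouring genes are not independent. The 20 members with a gap of at least 8 lay on 8 chromosomes, apart from 2 with none given.

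**Figure D4:**
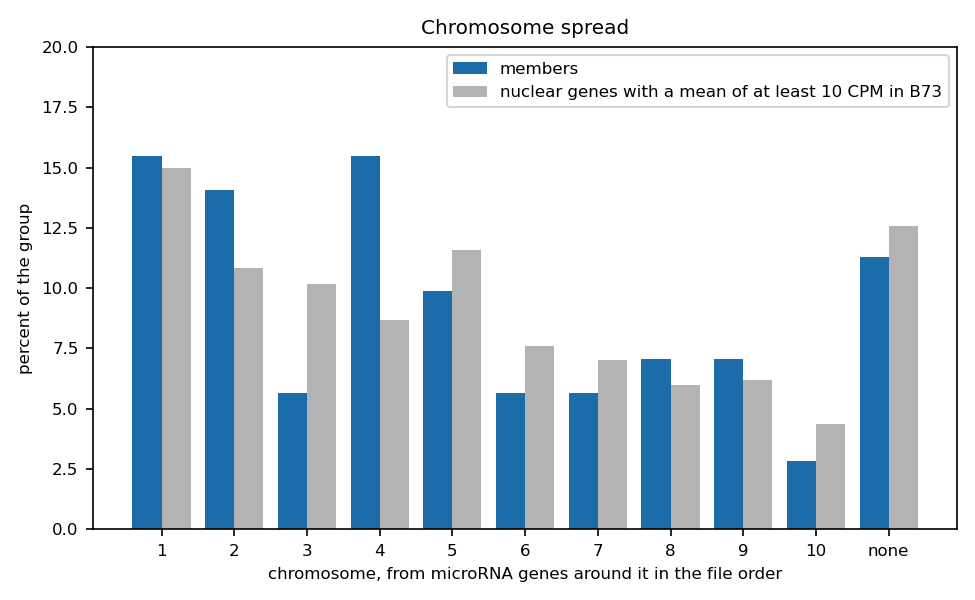
Share of the 71 members and of the 12009 nuclear genes whose B73 mean reached 10 CPM on each chromosome, with genes outside the microRNA genes of a chromosome under "none". Chromosome 4 held 15.5% of the members and 8.69% of the genes.

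Among the members 1 pair had numbers that differ by 1, Zm00001d015053 and Zm00001d015054 on chromosome 5, and the files also list them next to each other. No run of 3 was found. By identifier 2 members and 2 genes of the mirrored rule had such a neighbour, and by place in the files 2 members and 4 genes of the mirrored rule. Of the 37 identifier neighbours of members whose B73 mean reached 10 CPM, 2 were members (5.41%, beside 0.591% of the 12009 genes), and these are the pair itself. Zm00001d015053 had 1.12, 1.98 and 0.125 CPM in W9706 and 12.4, 50.9 and 44.2 CPM in B73. Zm00001d015054 had 0.279, 0.738 and 0.125 CPM in W9706 and 4.43, 18.8 and 12.6 CPM in B73. Both genes were lowest in B73 replicate 1 and in W9706 replicate 3. Counts of Zm00001d015054 were 0.25, 0.373 and 1.00 times those of Zm00001d015053 in W9706 and 0.356, 0.369 and 0.285 times in B73, where the W9706 replicate 3 value rests on 4 counts in each gene. Their strand columns, described below, summed to 1.008 times the unstranded count in Zm00001d015053 and 1.024 times in Zm00001d015054. Some reads of each gene thus also overlap a gene on the other strand. Whether that gene is the other of the pair was not tested.

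A second pair had numbers that differ by 2, Zm00001d049242 and Zm00001d049244 on chromosome 4. The gene between them, Zm00001d049243, had 0 counts in all 6 libraries, so that no counted gene separates the pair. Zm00001d049242 had 3.71, 1.71 and 1.75 CPM in W9706 and 29.3, 17.8 and 20.7 CPM in B73. Zm00001d049244 had 24.6, 29.2 and 27.1 CPM in W9706 and 163, 180 and 172 CPM in B73. Its log2 fold change of -2.95 had a standard error of 0.11, the smallest of the set. The profiles of this pair over the libraries were unlike each other, with W9706 replicate 1 and B73 replicate 1 highest in the first gene and lowest in the second.

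This pair belongs to the densest stretch of members, which was singled out after the values were seen. Zm00001d049113, Zm00001d049157, Zm00001d049242, Zm00001d049244 and Zm00001d049292 lie within 158 nuclear genes of the files, between zma-MIR169o and zma-MIR2275a. They were 5 of the 37 genes of the stretch with at least 10 CPM in B73 (13.5%, beside 0.591% of the 12009 genes). The stretch was picked for its members and begins and ends with a member, so a high share follows from that choice. The largest number in 200 nuclear genes was 5 for the members and 3 for the mirrored rule, which had no gene in this stretch. Zm00001d049157 had 17.7, 15.6 and 8.91 CPM in W9706 and 139, 89.8 and 113 CPM in B73. Zm00001d049292 had 4.63, 4.04 and 3.21 CPM in W9706 and 28.1, 25.9 and 28.5 CPM in B73.

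No other gene of the stretch met the rule. Of 73 others tested, 16 were called lower in W9706 (21.9%, beside 19.0% of all genes tested) and 6 higher (8.22%, beside 15.2%), with log2 fold changes of -2.07 to 1.58 and a median of -0.11, beside 0.01 over all genes tested. Stretches with 3 members were found in 2 more places by the same window, on chromosome 4 from Zm00001d052139 to Zm00001d052206 and on chromosome 5 from Zm00001d015053 to Zm00001d015126. Among their other tested genes 5 of 29 and 5 of 25 were called lower, with medians of 0.03 and 0.13. Around all members, the 5 nearest tested genes on each side came to 683 genes other than members, of which 18.6% were called lower and 12.4% higher, with a median of 0.02. Over all nuclear genes tested the shares were 19.1% lower and 15.3% higher. Taking 1 gene on each side left 138 genes with 23.9% lower and 9.42% higher. Of these, 8 (5.80%) were lower by over 4-fold. That share was 4%, 3.51% and 2.51% with 2, 5 and 10 genes on each side. Over all nuclear genes tested, members included, it was 2.72%. These counts are given without a test.

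**Figure D5:**
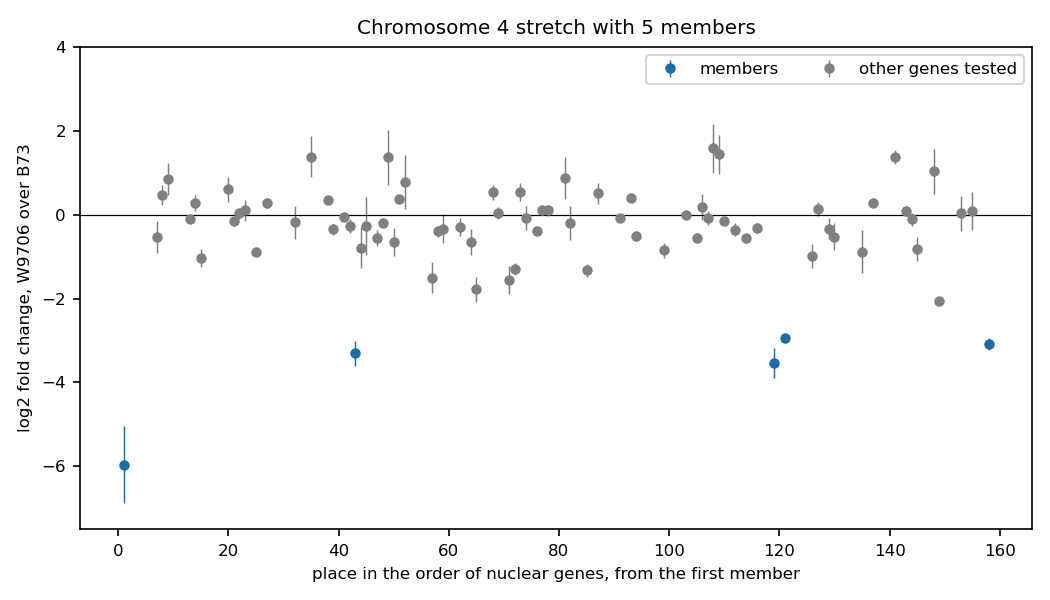
Log2 fold change, W9706 over B73, for the tested genes of the densest stretch, against place in the files' order of nuclear genes. Bars are standard errors derived from edgeR's fold change and F statistic. The 5 members lie between -5.97 and -2.95, and the 73 other genes between -2.07 and 1.58.

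In 2 of the 71 members (2.82%), Zm00001d039118 and Zm00001d020610, a gene of the mirrored rule lay within 10 places among nuclear genes, as it did for 3.18% of the 12009 genes. Counts by strand were used to look at overlap with genes on the other strand. The strand columns of a gene sum to more than its unstranded count where reads also overlap a gene of the other strand. They did so by more than 1.1 times in 0 of the 71 members, beside 1.56% of the 12009 genes. The members are too few to tell these shares apart. The highest values among members were 1.06 times, in Zm00001d012900, and 1.02 times, in Zm00001d015054. The first strand column held 39.5% to 63.0% of a member's stranded counts with a median of 49.9%.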

How the data were processed

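The deposited files hold raw counts per gene, laid out as STAR writes its gene counts. The submitters' processing notes name STAR; its version and settings, the genome build and the annotation were not given in the sources used here. Multimapping reads are listed as 0, so genes with close copies may be undercounted. Summary lines stayed out of totals. The unstranded column was used. CPM used library totals. edgeR 4.0.16 in R 4.3.3 (filterByExpr by group, TMM, robust quasi-likelihood F test, Benjamini-Hochberg) was fitted to all genes and checked on simulated data; DESeq2 1.42.0 was an alternative. Replicates of a line were no duplicates, with counts at least 11.2 times the sampling variance apart. Deviations of libraries with the same replicate number correlated at 0.22, 0.11 and 0.13 over tested genes. Unlike numbers gave -0.23 to 0.11, the highest of them between W9706 replicate 3 and B73 replicate 2. Only the replicates 1 thus stood clearly above the unlike pairs. A fit with the number as a block was an alternative.

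The members and lists were chosen with earlier results of these data known. Members named by rule were the 10 with the highest B73 mean, the 10 with the widest gap, the adjacent ones, and those next to the threshold. Other named genes were chosen after their values were seen. The RefSeq table (Zm-B73-REFERENCE-NAM-5.0) served for names, chromosomes and order of microRNA genes, the order taken from their start positions. No coordinates of the members themselves were used. Families by product and tissue markers had 0 matched genes and were not analysed here.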

Additional observations from a re-analysis of the deposited data

How the results depend on the processing

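The number of members depended on the rule's limits. A gap of at least 2 gave 295 genes and of at least 8 gave 20, and no minimum mean gave 138. TMM-scaled CPM gave 98 genes, DESeq2's size factors 101, the strand columns 69 and 65 (65 shared with the 71 in each), a mean of at least 5 CPM 89 and of at least 20 CPM 51. Leaving out a library gave 77 to 103, with 67 to 71 of the 71 kept, and by construction the condition on the gap eases with fewer libraries. Without B73 replicate 2 and W9706 replicate 1 together, chosen after seeing the data since each lies nearer the other line, 133 genes met it, among them 70 of the 71. Members with an adjacent identifier numbered 2 of the 71, 4 when numbers could differ by up to 2 and 4 when by up to 5. Among the 295 genes with a gap of at least 2 there were 8 with a number that differs by 1. The edgeR count of 7564 genes stayed within 1.5 times in all alternatives run, and the replicate block gave 8047. The members called lower numbered 71 with the replicate block, with DESeq2 and with each other normalization, 70 with no filter on low counts, 70 to 71 without a library and 69 without the 2 libraries together. The calls lost were those of Zm00001d003676 and, without the 2 libraries, Zm00001d015053. Depth limits the 9 members with under 10 counts in some W9706 library.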
